A study of Rattus norvegicus with 9 samples.

Results

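Cytosolic ribosomal protein genes encode the protein part of the ribosomes that translate nuclear mRNAs, and 50 such genes of 14217 measured genes were compared between skull bone and limb bone of the rat. They were taken by name, as every gene whose symbol in the platform annotation starts with Rpl or Rps and a number, or is Rpsa, Rplp0, Rplp1 or Rplp2, without the Rps6k kinases. A gene entered only through probe sets that name that gene alone, and where there were several, the brightest one over the 9 arrays (by mean log2 signal) stood for it. Bone tissue of male CD rats with a labelled weight of 110 g was profiled, on 4 arrays for the skull (calvaria, its vault) and 5 for the limb (ulna, a forelimb bone). The rats were untreated, and per the methods the bones were freed of soft tissue and of epiphyses (bone ends) or sutures. RNA was extracted from groups of rats, so a replicate is a pool of animals. The labels do not say which skull and limb extracts came from the same rats, and p-values measure the spread between these pools. A tissue field in the labels names the calvaria for 4 of the 5 limb arrays, although their titles and source names give the ulna. All 10 positional markers differed between the sites as titled, 6 lower in skull and 4 higher. All of them but Hoxa9 are in the study's own lists of genes that differed in rat bone, so their count is no independent check of the titles. Hoxa9, a Hox gene of the trunk and limb, had signals of 1.82 to 4.797 on the skull arrays and 60.4 to 79.0 on all 5 limb arrays.

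Each ribosome has a small subunit, which reads the mRNA, and a large subunit, which joins amino acids, and most ribosomal proteins are present once in every ribosome. Cells that build ribosomes make these proteins in matched amounts, and the mRNAs rank among the most abundant of a cell. Vertebrate ribosomal protein mRNAs begin with a run of pyrimidines (C and T in the DNA), the 5' terminal oligopyrimidine or TOP motif, through which mTORC1 and the RNA-binding protein Larp1 set how much of the mRNA is translated. Some of the proteins have paralogues that replace them in particular tissues, and mutations of others cause Diamond-Blackfan anaemia, a failure of red cell formation that can come with skeletal malformations.

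The start of the gene is where that motif lies. The RefSeq promoter table of the GRCr8 rat assembly held a single promoter for 43 of the 50 genes, from 250 bases before to 50 bases after the annotated start. The windows below hold 20 bases on each side of the start, 5' to 3' on the strand of the gene, and capitals mark an unbroken run of at least 8 C or T bases. Rps23, Rpl27a and Rpl7a are shown as examples with a long run (Rps23 at chr2:23814497-23814536, plus strand, Rpl27a at chr1:172974553-172974592, plus strand, and Rpl7a at chr3:30637116-30637155, plus strand). The others are the genes on which the results turn and 2 of their parent genes. They are Rps3 (chr1:163195757-163195796, minus strand), Rpl24 (chr11:58128386-58128425, minus strand), Rps4y2 (chr4:183000893-183000932, plus strand), Rpl26l1 (chr10:17029009-17029048, minus strand) with its parent Rpl26 (chr10:54109672-54109711, plus strand), and Rpl3l (chr10:14258426-14258465, plus strand) with its parent Rpl3 (chr7:113507971-113508010, minus strand).
Rps23: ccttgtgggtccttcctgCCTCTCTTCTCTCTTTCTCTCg
Rpl27a: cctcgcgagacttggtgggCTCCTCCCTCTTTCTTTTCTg
Rpl7a: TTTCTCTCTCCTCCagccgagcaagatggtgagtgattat
Rps3: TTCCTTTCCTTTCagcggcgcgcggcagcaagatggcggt
Rpl24: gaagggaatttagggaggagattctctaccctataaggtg
Rps4y2: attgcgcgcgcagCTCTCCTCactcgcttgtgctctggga
Rpl26l1: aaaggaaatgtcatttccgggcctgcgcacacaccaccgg
Rpl26: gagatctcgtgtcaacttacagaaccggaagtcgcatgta
Rpl3l: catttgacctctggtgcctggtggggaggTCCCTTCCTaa
Rpl3: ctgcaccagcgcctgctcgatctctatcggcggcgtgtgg
The run of Rps23 spans 21 bases from position -2 to 19 and that of Rpl27a 20 bases from position -1 to 19, where 1 is the annotated start and there is no position 0. In Rps3 and Rpl7a the runs of 13 and 14 bases begin at the left edge of the window and end before the annotated start. Rpl24, Rpl26, Rpl26l1 and Rpl3 have no run of 8 bases in these windows, and their longest runs are 6, 4, 5 and 5 bases. The windows follow annotated starts, and where transcription begins in bone was not measured. A window without a run therefore does not show that the mRNA lacks the motif.

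The ribosomal protein genes as a group had nearly the same signal in skull and limb. Their median difference, skull minus limb, was 0.03 on the log2 scale, with the middle of the genes between -0.05 and 0.09 (quartiles), against -0.02 for all 14217 genes, whose quartiles were -0.33 and 0.32. A single gene, Rps4y2, was higher in skull at an adjusted p below 0.05 (limma, Benjamini-Hochberg over all 14217 genes), and it was also at least 2-fold higher. Rps3, Rpl26l1 and Rpl3l were lower at that adjusted p, none of them 2-fold, and the other 46 genes did not pass the test. By adjusted p alone, 4 of the 50 ribosomal protein genes were thus called in either direction, against 32.3% of all genes (14.2% higher and 18.1% lower in skull). With the 2-fold threshold added, 3.59% of all genes were higher and 4.47% lower (8.07% together). The 95% confidence interval of the difference lay within 2-fold for 46 of the 50 genes.

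**Figure D1:**
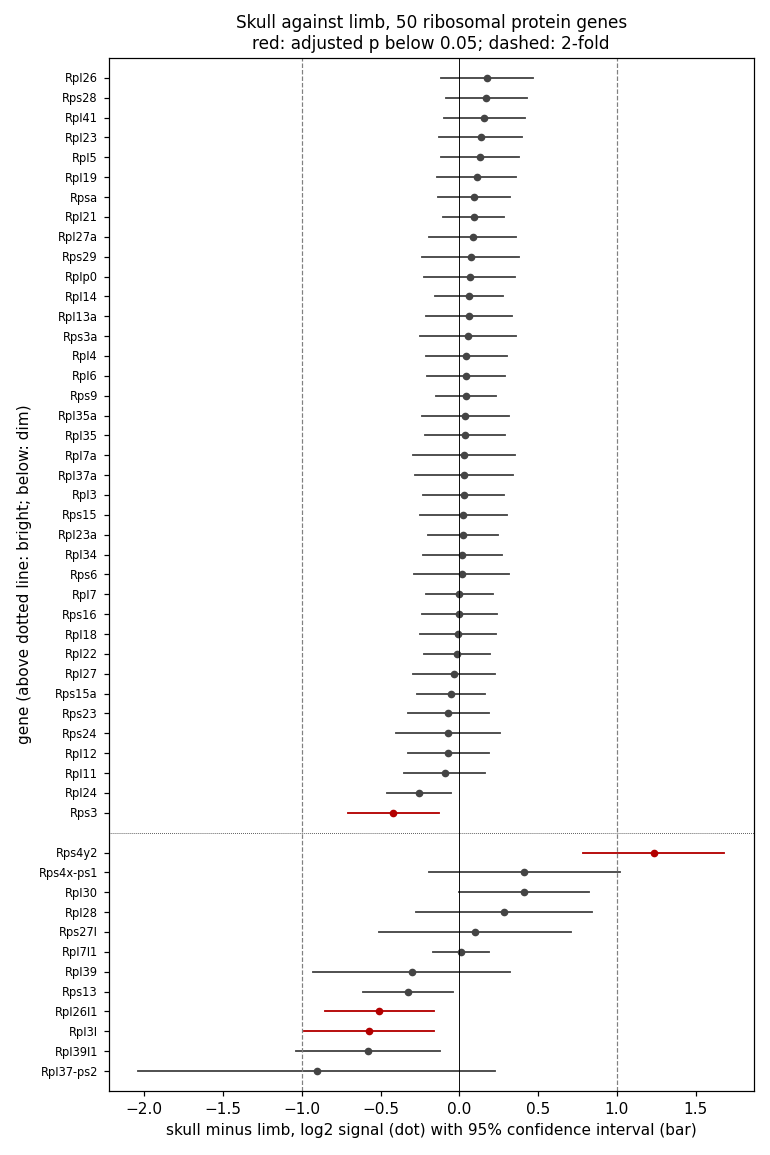
Difference between skull and limb for each of the 50 ribosomal protein genes, as log2 signal in skull minus limb (horizontal axis, dots) with its 95% confidence interval from the limma fit (bars), genes sorted by difference above and below the dotted line that parts 38 bright from 12 dim genes. Of the 38 bright genes 36 lie between -0.09 and 0.18, and the 4 genes in red (Rps4y2, Rps3, Rpl26l1 and Rpl3l) passed the adjusted p.

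The symbols divided into 16 of the small subunit and 34 of the large subunit, with median differences of 0.03 for both. The sign of the median for all 50 genes turned without skull 3 (-0.02) or without limb 4 (-0.02), and that of the small-subunit genes also under quantile normalization (-0.01), so no direction is read from these medians. Other scalings moved the median for all 50 genes to at most 0.13, and the median difference changed by less than the spread between replicates (0.13, SD) in each case. In RNA of bone tissue, fewer cells of a type and less RNA per cell cannot be told apart.

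A mean scaled signal of 1000 parted 38 bright from 12 dim genes, a split chosen after the values were seen. The array median was about 33.8 in the same units. The 38 bright genes, 12 of the small and 26 of the large subunit, had mean signals of 2009 to 6455 in skull and 1887 to 6162 in limb. Of these, 30 differed by less than 0.1 and 36 by less than 0.2 on the log2 scale, with standard errors of 0.08 to 0.15. All 38 confidence intervals lay within 2-fold, and 37 within 0.5 on the log2 scale in either direction. Rps3 alone among them passed the adjusted p (2.63% of the bright genes). Among 418 other genes with a mean signal of at least 1000, 87 were higher and 122 lower in skull by that test, and their median difference was -0.08. These other genes were not matched to the bright ribosomal protein genes in signal.

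Among the brightest small-subunit genes, Rps29 and Rps23 had like signals at both sites. Rps29, a zinc-binding protein of the subunit head, had signals of 5573, 6706, 7050 and 6493 in skull and 6623, 5495, 7027, 5046 and 6618 in limb (difference 0.07 ± 0.14 SE, n = 4 and 5). Rps23, which lies at the decoding centre, had signals of 5026, 5978, 5703 and 5579 in skull and 6072, 5475, 6500, 4987 and 6268 in limb (-0.07 ± 0.11). The arrays of the sites overlapped for both genes, and neither passed the test (limma adjusted p = 0.733 and 0.693). Rps6, the protein that S6 kinases phosphorylate downstream of mTORC1, averaged 5148 ± 478 in skull and 5119 ± 732 in limb (SD, n = 4 and 5), a difference of 0.02 with a 95% confidence interval of -0.28 to 0.32. Rpsa, which is also known as the laminin receptor precursor, differed by 0.09 (-0.13 to 0.32).

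Among the brightest large-subunit genes, Rpl7a, Rpl3 and Rpl26 also overlapped between the sites. Rpl7a had signals of 5254, 6430, 6835 and 5665 in skull and 6652, 5503, 6822, 4741 and 5978 in limb, a difference of 0.03 ± 0.14. Rpl3, which reaches towards the peptidyl transferase centre, had signals of 4915, 5339, 5792 and 4872 in skull and 5651, 5026, 5719, 4323 and 5011 in limb, a difference of 0.03 ± 0.11. Rpl26 had the highest difference of the bright genes, 0.18 ± 0.13, with signals of 5012, 5748, 6454 and 5288 in skull and 5896, 4731, 5385, 4248 and 4648 in limb (limma adjusted p = 0.342). The lowest limb value of all 3 genes was on limb 4.

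The bright ribosomal protein genes varied together from array to array within a site. Their median deviation from each gene's own mean was -0.08, 0.07, 0.17 and -0.08 log2 on skull 1 to 4 and 0.09, -0.05, 0.15, -0.23 and -0.02 on limb 1 to 5. Limb 4 held the lowest of all 9 signals for 30 of the 38 genes, whereas skull 3 held the highest for 21 and limb 3 for 12. On limb 4 every one of the 38 genes lay below the mean of the other limb arrays, with a median of -0.27 and a range of -0.47 to -0.04. The 418 other genes with a mean signal of at least 1000, not matched in signal, had a median deviation of -0.04 on limb 4 and 0.07 on skull 3. Low values on limb 4 were not confined to ribosomal protein genes. The very bright Col1a1, Col1a2, Bglap and Hbb also had their lowest signals there (5424, 5441, 5208 and 4957), whereas Spp1 was lowest on limb 2 (3970). These comparison genes were chosen after their values were seen. After removal of the site means, the correlation of a bright gene with the median of the other bright genes over the 9 arrays had a median of 0.90 (range 0.47 to 0.99, above 0.8 for 30 genes). This is a description, since the genes share the arrays and their scaling, and the lowest values belonged to Rpl37a, Rps3 (0.51) and Rps28 (0.58).

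**Figure D2:**
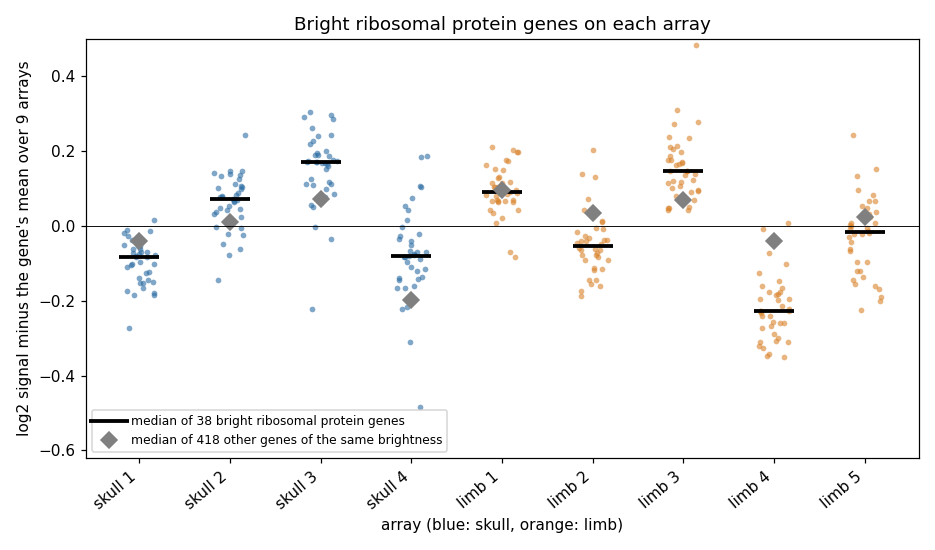
Each dot is a bright ribosomal protein gene on an array, as its log2 signal minus its mean over the 9 arrays (vertical axis). A bar marks the median of the 38 genes. A diamond marks the median of 418 other genes with a mean signal of at least 1000, not matched to the 38 genes in signal. Bars range from -0.23 on limb 4 to 0.17 on skull 3, and arrays of the same site differ by more than the site medians do.

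Without limb 4, 25 of the 38 bright genes had a difference below 0, against 11 with it, and their median was -0.02, against 0.03 with it. The highest scaled signal of any probe set was 7179 to 8739 on the skull arrays, 6720 to 8624 on limb 1, 2, 3 and 5, and 5625 on limb 4. RNA quality can be read from Gapdh control probe sets at the 3' and 5' ends of the transcript, whose log2 ratio (3' over 5') was 0.28 to 0.59 in skull and 0.21 to 0.37 in limb, with 0.32 on limb 4 and the highest value on skull 3. For beta-actin it was 0.75 to 1.04 in skull and 0.57 to 0.86 in limb, with the lowest value on limb 4. The part of these measures in the array-to-array shifts was not tested.

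Proteins with shared roles in the ribosome were measured in part. The stalk that recruits elongation factors is built on Rplp0 and Rpl12, which differed by 0.07 (95% confidence interval -0.22 to 0.35) and -0.07 (-0.33 to 0.19). Rpl5 and Rpl11, which enter the large subunit together with 5S rRNA and when free can bind the p53 regulator Mdm2, differed by 0.13 (-0.12 to 0.38) and -0.09 (-0.35 to 0.16). None of these 4 genes passed the test. Of the genes whose human counterparts are mutated in Diamond-Blackfan anaemia, 11 had a single-gene probe set. None of these 11 passed either threshold (limma, 0 at an unadjusted p below 0.05), and their median difference was 0.04 with a range of -0.09 to 0.18. Further genes of this kind, such as Rps19 and Rpl8, were measured only on probe sets shared with copies, which are given below. Rpl13a, which in human monocytes leaves the ribosome to silence inflammatory mRNAs, differed by 0.06, and Rpl23, another protein that can bind Mdm2, by 0.14. Rack1, a ribosome-bound signalling scaffold outside the name rule, differed by 0.06 (limma adjusted p = 0.744).

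Rps3 and Rpl24 stood apart from the other bright genes. Rps3, a small-subunit protein at the mRNA entry channel that also has a role in DNA repair, had signals of 2871, 3004, 2717 and 2266 in skull and 3186, 3649, 4435, 3155 and 3749 in limb. Every skull array lay below every limb array. The means were 2714 ± 321 in skull and 3635 ± 521 in limb (SD, n = 4 and 5), a difference of -0.42 ± 0.13 SE (limma adjusted p = 0.0344). Rps3 was thus 0.748-fold in skull, with a confidence interval of -0.71 to -0.13 on the log2 scale. The call was lost when any of 6 arrays was left out (adjusted p 0.0525 to 0.0766 without skull 1, 3 or 4 or limb 2, 3 or 5), with the replicate number as a block (0.0774), with array weights (0.0518) and when scaled to the brightest 10% of the probe sets (0.0625), while the difference without one array stayed between -0.47 and -0.33.

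Rpl24, a large-subunit protein at a bridge between the subunits, whose mutation in the mouse gives the Belly spot and tail phenotype, had signals of 2255, 2158, 2331 and 1923 in skull and 2697, 2615, 2893, 2399 and 2350 in limb. The sites did not overlap, but the highest skull signal and the lowest limb signal lay close together. The difference was -0.26 ± 0.09 and did not pass the threshold (limma adjusted p = 0.0549), and its interval of -0.46 to -0.06 lay below 0. Arrays of skull and limb did not overlap for 4 of the 50 genes, Rps4y2 higher and Rps3, Rpl24 and Rpl26l1 lower in skull, against 12.4% of all genes higher and 16.4% lower (28.9% together). Without Rps3 and Rpl24 the bright genes spanned -0.09 (Rpl11) to 0.18 (Rpl26).

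**Figure D3:**
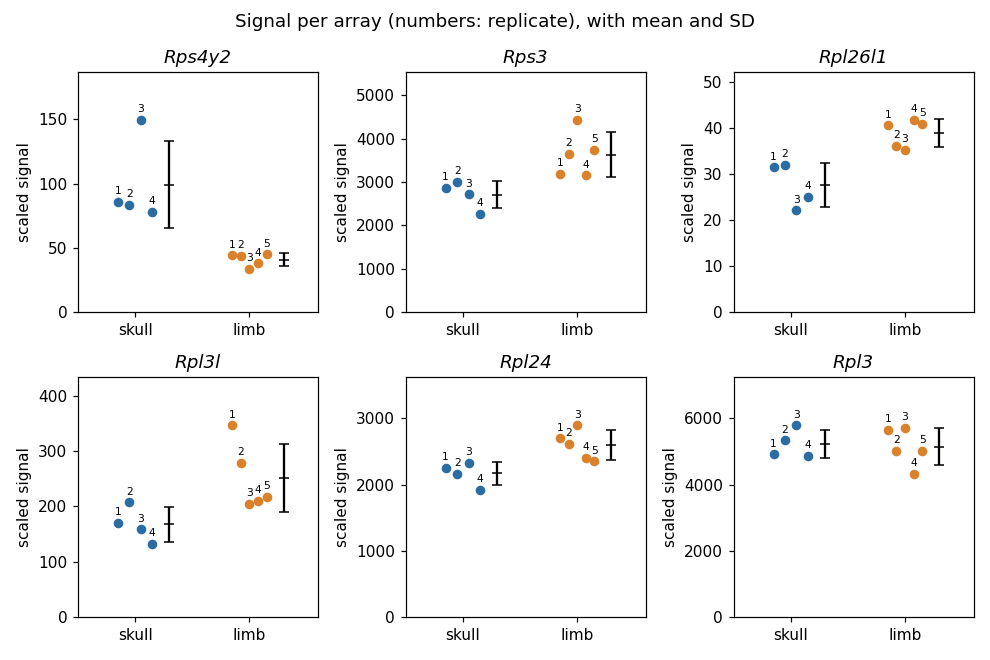
Scaled signal (vertical axis, linear, from 0) of 6 ribosomal protein genes on each array, skull left and limb right, with the replicate number above each point and the mean with its SD beside the points. For Rps4y2 all skull arrays lie above the limb arrays, for Rps3, Rpl26l1 and Rpl24 below them, and for Rpl3l and its parent Rpl3 the sites overlap.

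The 12 dim genes included paralogues, pseudogenes and probe sets that may not represent the main transcript, and 3 of them passed the adjusted p. Rps4y2 was the only gene past both thresholds. It is named as a copy of the small-subunit protein gene Rps4, and although its name refers to the Y chromosome, the RefSeq table places the rat gene on chromosome 4. Its signals were 85.6, 83.4, 149.5 and 78.1 in skull and 44.3, 43.6, 33.8, 37.9 and 45.0 in limb. All skull arrays lay above all limb arrays, and skull 3 stood apart from the other skull arrays. The means were 99.1 ± 33.7 in skull and 40.9 ± 4.88 in limb, a difference of 1.23 ± 0.20 or 2.35-fold (95% confidence interval 0.78 to 1.68, limma adjusted p = 0.00139). Without skull 3 the difference was 1.02 (adjusted p = 0.000763), and with log2 of the signal plus 16 it was 0.98, just under 2-fold. The gene most like it in name, Rps4x, was measured only by a probe set shared with a pseudogene, where the difference was 0.06 ± 0.12. Rps4 copies are alike in sequence, and how far the Rps4y2 probe set also binds their transcripts was not tested.

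Paralogues that replace a standard protein were measured in dim signals beside their parents. Rpl3l, which replaces Rpl3 in skeletal and heart muscle, had signals of 171, 207, 159 and 133 in skull and 347, 279, 204, 211 and 217 in limb. The 2 highest values were on limb 1 and limb 2, and the sites overlapped through skull 2 and limb 3. The means were 168 ± 30.8 in skull and 251 ± 61.0 in limb, a difference of -0.57 ± 0.18 (limma adjusted p = 0.0402). The bright probe set of its parent Rpl3 differed by 0.03, and a dim one is given below. The call was lost without any of skull 1, 3 and 4 and limb 1, 2 and 5 (adjusted p 0.0517 to 0.104), and without limb 1 the difference was -0.45. It was also lost with the methods' test (0.0768), without the intensity trend (0.0591), with array weights (0.0601), with p adjusted over all probe sets (0.055), with a floor at the 25th percentile (0.0567) and when arrays were scaled to the brightest 10% of the probe sets (0.0572).

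Markers of skeletal muscle moved in the same direction as Rpl3l. Of 23 muscle markers, 22 were lower and 1, Myh1, was higher in skull, and their summed signal was 944 to 1004 in skull and 31074, 24916, 16183, 14750 and 12169 on limb 1 to 5. The Myh1 probe set, of a type that can bind related transcripts, averaged 601 in skull and 399 in limb and made up most of the skull sum. Acta1, skeletal muscle actin, averaged 11.03 in skull and 3441 in limb, and Myl1, a fast myosin light chain, 10.4 in skull and 2114 in limb. The limb arrays with the most muscle signal, 1 and 2, were also those with the most Rpl3l signal. From limb 3 to limb 5 the muscle sum fell, whereas Rpl3l rose slightly (204, 211 and 217). The part of muscle in the Rpl3l difference was not tested.

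Rpl26l1, a paralogue of Rpl26, had signals of 31.46, 32.05, 22.15 and 25.04 in skull and 40.61, 36.23, 35.25, 41.81 and 40.96 in limb. All skull arrays were below all limb arrays, and the difference was -0.51 ± 0.15 (limma adjusted p = 0.0321), against 0.18 for Rpl26. Its signals lay near the array median, and the call was lost without any of skull 3 and 4 and limb 1, 4 and 5 (adjusted p 0.0635 to 0.0711), with the replicate block (0.115), with log2 of the signal plus 16 (0.055) and when scaled to the brightest 10% of the probe sets (0.0707). Rpl39l1, an Rpl39-like gene whose mouse and human counterparts are made mainly in the testis, had signals of 15.8 to 24.7 in skull and 22.4 to 31.5 in limb, a difference of -0.58 ± 0.20 that missed the threshold (limma adjusted p = 0.0554). The other pairs did not pass the test. Rpl39 differed by -0.30 (95% confidence interval -0.93 to 0.32), Rpl7 by 0.00 (-0.21 to 0.21) and its paralogue Rpl7l1 by 0.01 (-0.17 to 0.19). Rpl22, an RNA-binding protein that is needed for T cell development in the mouse, differed by -0.01 (-0.22 to 0.20), and Rps27l, a p53 target in human cells, by 0.10 (-0.51 to 0.71).

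The 5 dimmest genes were Rps4x-ps1, Rpl28, Rpl37-ps2, Rpl30 and Rpl39l1. Rps4x-ps1, named as a pseudogene, was at the floor of 2.51 on 2 skull and 4 limb arrays, so its level was not resolved. Rpl37-ps2, named as a pseudogene, had the widest interval (-2.04 to 0.23). Rpl28 and Rpl30, which encode standard large-subunit proteins, had single-gene probe sets with mean signals of 15.7 and 23.4 in skull and 13.2 and 17.5 in limb. On bright probe sets shared with other gene symbols they differed by 0.04 and 0.02, and the same held for Rps13, with -0.32 on its dim and -0.03 on its bright shared probe set. Another bright probe set, which names Rpl30 together with Rps10, differed by -0.07. Rpl28, Rpl30 and Rps13 were therefore represented by dim probe sets only because the bright ones name several genes.

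Many ribosomal proteins have processed copies in the genome, and 36 further probe sets named a ribosomal protein gene together with other symbols. Of these, 33 were bright, with differences of -0.10 to 0.23, and none of the bright ones passed an adjusted p below 0.05 over all probe sets (limma, 1 at an unadjusted p below 0.05). The highest was shared by Rps25 and its copies (0.23 ± 0.09, limma adjusted p = 0.110). The shared probe sets of Rps14 (0.02), Rps19 (0.01), the first gene found mutated in Diamond-Blackfan anaemia, and Rplp1 (0.11), a stalk protein, did not pass either. Rpl38, whose loss in the Tail short mouse alters the translation of Hox mRNAs and the pattern of the axial skeleton, had signals of 2921, 3089, 3774 and 2833 in skull and 3398, 3515, 3939, 2903 and 2882 in limb on a probe set shared with copies. The sites overlapped, and the difference was -0.08 with a 95% confidence interval of -0.36 to 0.21. Rps14, Rps19 and Rplp1 belong to role groups of the genes above, whereas Rps25, Rps4x and Rpl38 were chosen after their values were seen. The 1 shared probe set that passed, a dim one for Rpl8 and its copies, was lower in skull (-0.33 ± 0.09, limma adjusted p = 0.0276), while a bright one for Rpl8 differed by -0.01.

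Further single-gene probe sets existed for 6 of the 50 genes. None of these 7 probe sets passed an adjusted p below 0.05 over all probe sets (limma, 2 at an unadjusted p below 0.05), and their differences had the sign of the representative in 3 cases and the opposite sign in 4. A second Rps24 probe set was higher on every skull array (87.2 to 121 in skull and 64.2 to 86.9 in limb, 0.30 ± 0.12, limma adjusted p = 0.123), whereas the bright one differed by -0.07. A second Rpl7l1 probe set had signals of 279, 308, 291 and 278 in skull and 326, 337, 321, 325 and 302 in limb, a difference of -0.16 ± 0.05 that missed the threshold (limma adjusted p = 0.0530), and the sites overlapped through skull 2 and limb 5. The brighter Rpl7l1 probe set differed by 0.01. A second, dim Rpl3 probe set differed by -0.63 ± 0.38 (limma adjusted p = 0.311), whereas the bright one differed by 0.03. A second bright Rpsa probe set differed by -0.13 ± 0.09 (limma adjusted p = 0.392), whereas the brightest one differed by 0.09.

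Among mitochondrial ribosomal protein genes and ribosome biogenesis genes, more of the called genes were lower than higher in skull, as was also so among all genes. Of 73 mitochondrial ribosomal protein genes, whose products form the separate ribosome of the mitochondrion, 2 were higher and 17 lower in skull by adjusted p alone, with a median of -0.16 and none 2-fold. These are 2.74% and 23.3% of the list, against 14.2% and 18.1% of all genes. Mrpl17 was higher (907 ± 89.8 in skull and 767 ± 34.0 in limb, 0.24), and Mrpl33 did not pass the test (-0.17), both proteins of the mitochondrial large subunit. Of 44 ribosome biogenesis genes, none was higher (limma, 0 at an unadjusted p below 0.05) and 10 were lower (22.7%), against 14.2% and 18.1% of all genes. Their median was -0.12 and none was 2-fold. The brightest, the rRNA modification protein Nop10 (-0.10) and nucleolin (Ncl, -0.16), did not pass. The lower ones, chosen after their values were seen, included Sbds, which readies the large subunit for translation (177 ± 15.3 in skull and 284 ± 29.7 in limb, -0.68), the rRNA pseudouridylation protein Gar1 (167 ± 12.1 in skull and 236 ± 13.8 in limb, -0.50) and the RNA polymerase I subunit Polr1c (-0.43).

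Of 19 translation factors and other genes listed for TOP-like mRNAs, 1 was higher (5.26%) and 3 were lower (15.8%) in skull, against 14.2% and 18.1% of all genes. The brightest, Eef1a1, which delivers aminoacyl-tRNA, and Eef2, which moves the ribosome along the mRNA, differed by 0.13 and 0.11 and did not pass. Vimentin (Vim), an intermediate filament protein of mesenchymal cells, was higher by 0.54 (limma adjusted p = 0.00151). The synthetase complex protein Eef1e1 (-0.73), the initiation factor subunit Eif2s3 (-0.43) and the elongation factor subunit Eef1d (-0.21) were lower. Of 18 genes of the mTORC1 and S6 kinase axis, 4 were higher and 1 was lower. These are 22.2% and 5.56% of the list, against 14.2% and 18.1% of all genes. The higher ones were the translation inhibitor Pdcd4 (0.61), the mTOR inhibitors Deptor (0.58) and Akt1s1 (0.30) and the elongation factor kinase Eef2k (0.42). Other inhibitors of the list, Tsc1 (-0.16), Tsc2 (-0.08), Eif4ebp1 (-0.15) and Eif4ebp2 (0.03), did not pass the test. Larp1, the protein that binds TOP mRNAs, had signals of 464, 464, 400.2 and 496 in skull and 661, 687, 590.3, 626 and 639 in limb, and every skull array lay below every limb array (-0.49 ± 0.07, limma adjusted p = 0.000742). Rheb (0.02) and Eif4g1 (0.19), the brightest of that list, did not pass. Of the translation and mTORC1 genes, all named other than Eef1a1, Eef2, Rheb and Eif4g1 were chosen after their values were seen.

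**Figure D4:**
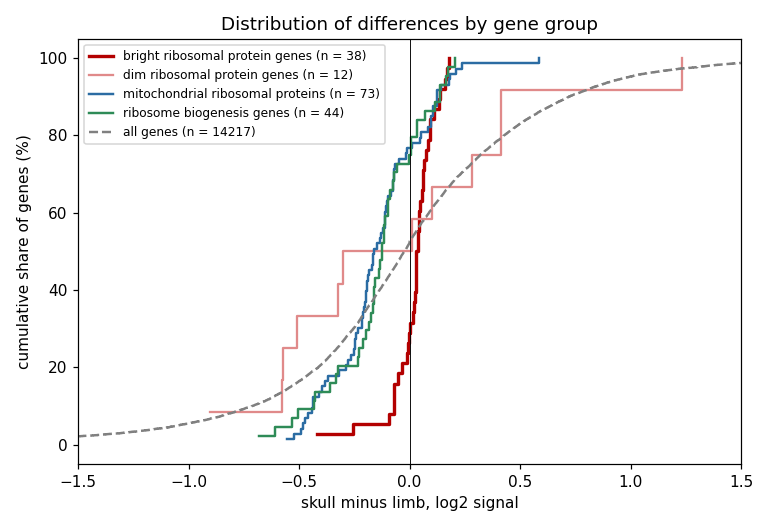
Cumulative share of genes (vertical axis, percent) at or below each skull minus limb difference in log2 signal (horizontal axis, drawn from -1.5 to 1.5) for bright and dim cytosolic ribosomal protein genes, mitochondrial ribosomal protein genes, ribosome biogenesis genes and all genes. The curve of the 38 bright genes is the steepest of the 5 and lies close to 0 (median 0.03), while the mitochondrial (median -0.16) and biogenesis curves (median -0.12) lie to its left.

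Most erythroid, neutrophil, bone and osteoclast markers differed between the sites. The summed signal of 13 erythroid markers was 15535 to 15985 in skull and 22703 to 29399 in limb, and 11 of them were lower in skull. The sum of 7 neutrophil markers was 11621 to 13906 in skull and 17776 to 23616 in limb, with all 7 lower. Of 5 B cell markers, 1 was lower in skull by the adjusted p (20%, against 18.1% of all genes) and 0 were higher. Of 10 bone markers 6 were higher, with sums of 35686 to 47050 in skull and 26405 to 35510 in limb, and all 6 osteoclast markers were higher. The part of these cell types in the ribosomal protein differences was not tested.

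Most bright genes with a single promoter had a pyrimidine run in the start window, a feature that the choice of genes did not use. A run of at least 8 C or T bases lay in the window of 40 bases in 23 of 34 bright genes (67.6%) and in 28 of the 43 ribosomal protein genes with a promoter (65.1%). It lay in 11 of 57 mitochondrial ribosomal protein genes (19.3%) and in 1592 of 10902 other measured genes (14.6%). On the opposite strand it lay in 1 of the 34 bright ribosomal protein genes (2.94%) and in 1639 of the 10902 other genes. A C at the annotated start followed by 4 further C or T bases was found in 10 of the 34 bright genes (29.4%) and in 2.49% of other genes.

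Over the whole promoter and on both strands, the motif TCGCGAGA was found in 8 of the 34 bright genes (23.5%) and in 1.71% of other genes, and ACTTCCG, which holds the core bound by ETS factors, in 29.4% and 11.5%. AAGATGG, a core bound by YY1 in human cells, was found in 23.5% of bright genes, 26.3% of mitochondrial ribosomal protein genes and 7.99% of other genes. The GC box GGGCGG was found in 61.8% of bright and 57.9% of other genes, and the TATA box TATAAA in 8.82% and 8.43%. Each motif was searched on its own, so matches of different motifs can overlap, and a match describes the sequence and not a bound site. The 23 bright genes with a pyrimidine run had a median difference of 0.04 and the 11 without one 0.02, so the sites differed little in either set. Of the genes that passed the adjusted p, Rps3, Rps4y2 and Rpl3l have a run in the windows printed above and Rpl26l1 has none.

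**Figure D5:**
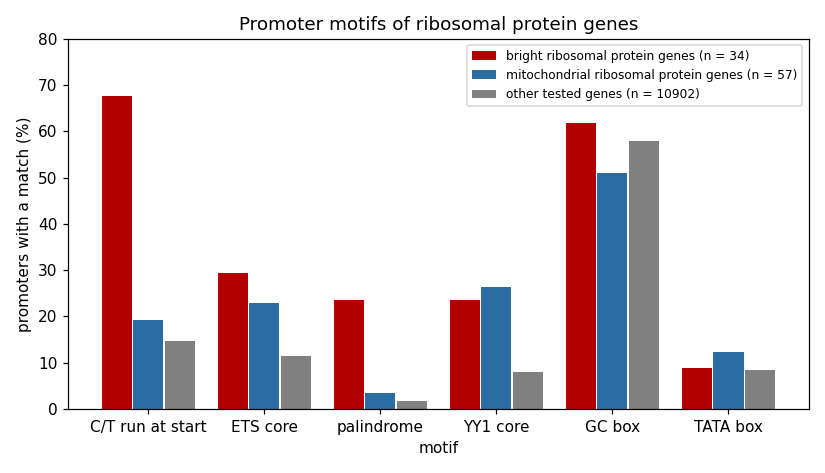
Share of promoters with a match (vertical axis, percent) for a pyrimidine (C/T) run of at least 8 bases within 20 bases of the start and for 5 short motifs on either strand anywhere in the promoter (the ETS core, TCGCGAGA, the YY1 core, the GC box and the TATA box). TCGCGAGA is labelled palindrome in the figure, although it is not a full palindrome. Bars stand for bright cytosolic ribosomal protein genes, mitochondrial ribosomal protein genes and other measured genes, and the run at the start has 67.6%, 19.3% and 14.6%.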

How the data were processed

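RNA from skull and limb bone was hybridised by the authors to whole-genome rat GeneChips after one-cycle labelling. The deposited values are linear intensities, a signal for each probe set on each array, made with MAS5 according to the submitters' processing notes. For its own gene lists the study applied normalisations by chip and by gene and an analysis of variance with Benjamini-Hochberg adjustment. The table held 31099 probe sets, of which 57 controls were left out and 31042 were tested. A single symbol was given for 20826 of these, several for 436 and none for 9780, and the last 2 kinds stood for no gene.

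Each array was scaled to its median, given a floor of 2.51, the 10th percentile over all arrays, and taken to log2. Skull and limb were compared with limma 3.58.1 under R 4.3.3 (lmFit and eBayes with an intensity trend, two-sided), and p was adjusted over 14217 genes. Differences are skull minus limb and understate the change of genes at the floor. Standard errors and 95% confidence intervals come from this fit. No scan date is given in the sources used here, and the number of arrays limits the precision. No 2 arrays held identical values.

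The members and gene lists were chosen with earlier results of these data known. Genes named in the text are those past the adjusted p, the 5 brightest and 5 dimmest members, members of the role groups, and in each related list the 3 with the smallest adjusted p past both thresholds (without any such gene, the 2 brightest). Exceptions are stated where they occur. Alternatives were other scalings, floors, variance models, tests, choices of probe set, the replicate number as a block and each array left out in turn.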

Additional observations from a re-analysis of the deposited data

Results flagged for a closer look

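Rps4y2 in skull and Rpl30 in skull each had 1 array far from the others. For Rps4y2, skull 3 lay at 149.5 and the other skull arrays at 78.06 to 85.64, a gap of 0.894 of the whole range. For Rpl30, on its dim single-gene probe set, skull 1 lay at 18.43 and the other skull arrays at 24.76 to 25.32, a gap of 0.918 of the range. Both gaps were above the 95% limit of Dixon's test. Of 100 groups of arrays tested (50 genes at both sites), 2 passed it, and chance alone flags about 5% of groups.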

How the results depend on the processing

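In no alternative did a called gene change its direction. Rps4y2 passed the adjusted p in all 23 alternatives (0.98 to 1.33, adjusted p at most 0.0233), Rpl26l1 in 15 of 23, Rps3 in 14 of 23 and Rpl3l in 10 of the 22 in which it could be fitted, and 38 genes passed in none. The number of genes higher in skull by adjusted p was 1 as reported, 5 with cyclic loess (Rpl19, Rpl23, Rpl26 and Rpl41 added), and 2 each with quantile normalization (Rpl21 added) and with a floor at the 25th percentile, without the intensity trend or with the methods' test (Rpl30 added in each). With 2-fold added it was 1 as reported and 0 with log2 of the signal plus 16. The number lower was 3 as reported, 5 with quantile normalization, 0 when scaled to the brightest 10% of the probe sets, 1 with array weights and 0 to 4 when an array was left out (0 without skull 3, skull 4 or limb 5, and 1 without skull 1 or limb 2). Deviations of same-numbered arrays correlated by -0.01 to 0.04, and skull 1 and 4 but not 2 and 3 correlated best with their own number. These correlations rest on few arrays and cannot decide whether the replicate numbers pair the samples. With the replicate block, which leaves out limb 5, 1 gene was higher and 2 were lower (Rpl24 gained at an adjusted p of 0.042, Rps3 and Rpl26l1 lost), and 6 ribosome biogenesis genes were lower, against 10 as reported. The cause of these shifts was not tested. Small differences of bright genes are limited by the 9 arrays, and those of dim genes by signals near the array median.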
